A study of Homo sapiens with 4 samples.

Results

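RNA interference rests on a small set of proteins, and 10 of their genes are described here in 143B cells, a human osteosarcoma line. The genes are DROSHA, DGCR8, DICER1, AGO1, AGO2, AGO3, AGO4, TNRC6A, TNRC6B and TNRC6C. They were chosen by name, with earlier results of these data known. All 10 are among the 37450 features of the deposited count table, and all 10 passed the filter on low counts. Messenger RNA was sequenced 2 days after lipid transfection in 2 groups of 2 libraries each. One group received the siRNA labelled siNC (genotype WT) and serves as the control, and the other received siCBX3 (genotype CBX3 knockdown). The product of CBX3 is HP1γ, a reader of methylated histone H3 in chromatin. The siRNA sequences are not given in the labels. A direct effect of the siCBX3 siRNA on other messages cannot be told apart from the loss of CBX3. Cells of both groups carried an siRNA, so a response that any transfected siRNA evokes is shared by them and cannot be told apart from the untreated state. All libraries are from 1 cell line, and nothing in the labels says that the 2 libraries of a group were separate cultures. The p-values thus reflect just the scatter of these libraries, estimated partly from other genes, and that scatter may be technical. In such bulk RNA, fewer cells of a type and less RNA per cell cannot be told apart.

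In the nucleus, the Microprocessor (the RNase III enzyme DROSHA with its RNA-binding partner DGCR8) cuts primary microRNA transcripts into hairpins. In the cytoplasm the RNase III enzyme DICER1 trims the hairpins to short duplexes, and 1 strand is loaded into an Argonaute protein (AGO1 to AGO4), which pairs with target messages through the seed of the small RNA. AGO2 is the Argonaute best known for slicing perfectly matched targets, the reaction that a transfected siRNA uses. GW182 proteins (TNRC6A, TNRC6B, TNRC6C) bind Argonautes and recruit the enzymes that shorten poly(A) tails and remove caps.

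The libraries held 36509298 to 40336907 counts. The targeted gene, CBX3, went from 20311 and 21384 counts with siNC to 2020 and 2163 with siCBX3, a log2 fold change of -3.19 (SE 0.08, adjusted p 2.73e-20, edgeR). Levels below are CPM (TMM-scaled counts per unit of library size). Of 8 osteoblast and mesenchymal markers, 4 were called higher with siCBX3 (edgeR). These were SPARC (321 to 1732 CPM), VIM (704 to 1420 CPM), COL1A1 (13.5 to 18.2 CPM) and RUNX2 (4.44 to 5.82 CPM). COL1A2 (8.78 and 10.4 CPM) and BGLAP (0.485 and 0.716 CPM) were not called, and ALPL and SP7 were near 0 and not tested. The leukocyte markers PTPRC, CD3E and CD14 lay at or under 0.381 CPM in both groups' means. Of the other markers, the epithelial EPCAM fell from 14.2 to 9.96 CPM and CDH1 stood at 0.177 and 0.162 CPM, while the endothelial PECAM1 stood at 1.52 and 1.28 CPM and CDH5 at 0.0531 and 0.0567 CPM. The part of these markers in the results below was not tested.

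With siCBX3 AGO4 rose 2.16-fold, and AGO2, AGO3 and TNRC6C fell to 50.1%, 65.3% and 45.7% of siNC. DICER1, DGCR8 and TNRC6B fell by smaller amounts, DROSHA rose by 0.21 on the log2 scale, and AGO1 and TNRC6A were not called. Of the 10 genes 8 were called at an adjusted p under 0.05 (edgeR quasi-likelihood test), against 48.4% of the 20999 genes tested. Called higher were 2 genes, against 24.4% of all genes, and called lower were 6, against 24.0%. A log2 change of at least 1 in size was called for AGO4 (6.41% of all genes were called that far higher) and for TNRC6C (6.42% that far lower). The median log2 fold change of the 10 was -0.23, against -0.01 over all genes tested, and their median size was 0.28, against 0.39. In all 10 the libraries of the groups did not overlap in scaled CPM, which also held for 73.9% of all genes. The plot of each gene's libraries shows that the largest separations were those of AGO2, AGO4 and TNRC6C.

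**Figure D1:**
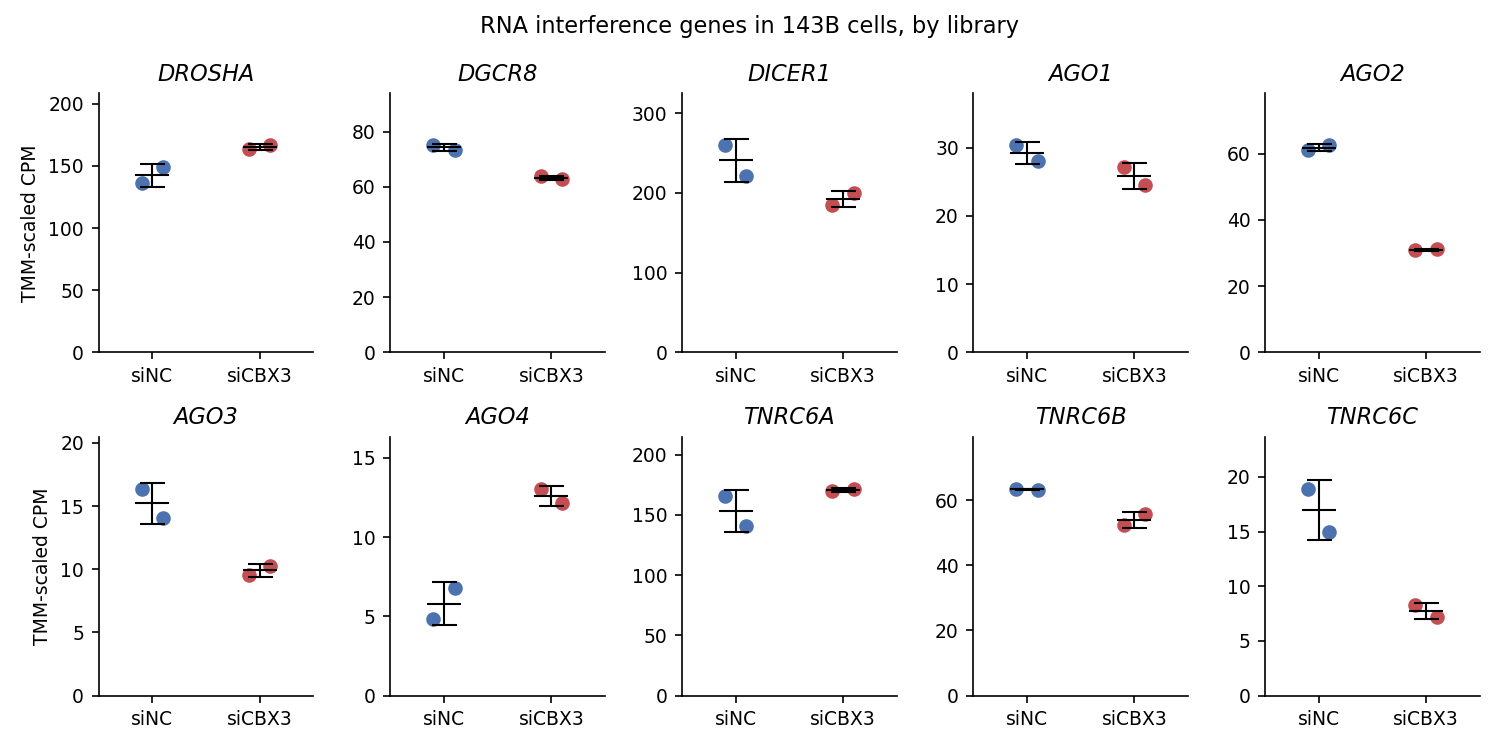
Level of each of the 10 genes in TMM-scaled CPM (y axis, from 0, own scale per gene) in the siNC and siCBX3 libraries. Points are libraries, bars the mean ± SD (n = 2), and AGO2 went from 61.1 and 62.6 to 30.8 and 31.1 while AGO4 went from 4.83 and 6.77 to 13.05 and 12.2.

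The nuclear enzyme and its partner moved in opposite directions by small amounts. DROSHA (chromosome 5, 31400497 to 31532196, minus strand, GRCh38) had 136 and 149 CPM in siNC and 163 and 167 CPM in siCBX3. Both siCBX3 libraries lay above both siNC libraries, which is a log2 fold change of 0.21 (SE 0.07, adjusted p 0.0223, edgeR). That call was lost without siNC replicate 1 (0.15, adjusted p 0.118), without siCBX3 replicate 1 (0.22, adjusted p 0.101) and without siCBX3 replicate 2 (0.20, adjusted p 0.153). It was also lost with library totals in place of TMM scaling (0.13, adjusted p 0.179) and with upper-quartile scaling (0.17, adjusted p 0.0726).

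DGCR8, the double-stranded RNA binding subunit, lies on chromosome 22 (20080232 to 20111877, plus strand). It had 75.1 and 73.5 CPM in siNC and 63.8 and 62.8 CPM in siCBX3. The 2 siCBX3 libraries lay below the siNC ones, with a log2 fold change of -0.23 (SE 0.08, adjusted p 0.0157, edgeR). The call was lost without siCBX3 replicate 1 (-0.24, adjusted p 0.0852) or siCBX3 replicate 2 (-0.22, adjusted p 0.130). Per length, the level of DROSHA was 1.70 and 1.91 times that of DGCR8 in siNC and 2.41 and 2.496 times in siCBX3, as ratios of the deposited RPKM values. DROSHA was higher and DGCR8 lower in both siCBX3 libraries, so the separation on this ratio follows from theirs and adds no support.

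The DGCR8 message is itself a substrate of the Microprocessor, which cuts hairpins near its 5′ end. Those hairpins carry miR-3618 and miR-1306, and both mature sequences fell wholly in DGCR8 exons of the count table. They are shown because they lie in the measured message, with the seed (bases 2 to 8) in capitals. The sequences are RefSeq's on GRCh38.p14, at chr22:20085797-20085818 and chr22:20086072-20086093, plus strand.
miR-3618: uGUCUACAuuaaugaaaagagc
miR-1306-5p: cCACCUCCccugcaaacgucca
Small RNAs were not measured in these libraries, so the levels of both microRNAs are not known from them. Another gene, AC006547.8 on the opposite strand, shares 526 exon bases with DGCR8 and had 42 to 58 counts per library, against 2248 to 3095 for DGCR8.

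DICER1, the cytoplasmic dicing enzyme, fell modestly. On chromosome 14 (95086228 to 95158010, minus strand), it had 259.9 and 222 CPM in siNC and 185 and 199.7 CPM in siCBX3. The highest siCBX3 library was below the lowest siNC library, at a log2 fold change of -0.32 (SE 0.08, 95% interval -0.49 to -0.16, adjusted p 0.00178, edgeR). DICER1 remained among the most abundant of the 10 genes per length, with a mean of 20.1 RPKM in siNC and 15.2 RPKM in siCBX3. DROSHA had 18.8 and 20.6 RPKM. The level of DROSHA over that of DICER1 was 0.827 and 1.06 in siNC and 1.39 and 1.32 in siCBX3. DICER1-AS1, its antisense neighbour, shares 80 exon bases with it and had 40 to 86 counts per library.

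AGO2 (chromosome 8, 140520156 to 140635619, minus strand), the slicing Argonaute, was the Argonaute with the smallest p-value. Its counts were 2303 and 2638 with siNC and 1086 and 1180 with siCBX3, or 61.1 and 62.6 CPM against 30.8 and 31.1 CPM. The libraries of each group lay close together and far from those of the other group. Its log2 fold change came to -0.998 (SE 0.08, 95% interval -1.17 to -0.83, adjusted p 3.81e-10, edgeR). Another feature, RP11-642A1.2, shares 47 exon bases with AGO2 and on its strand and had 18 to 59 counts per library, falling too (-1.34, adjusted p 0.00607, edgeR).

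AGO4 moved the other way. This Argonaute, which like AGO1 and AGO3 is known mainly for repression without slicing, went from 182 and 285 counts with siNC to 460 and 461 with siCBX3. Scaled, its level was 4.83 and 6.77 CPM against 13.05 and 12.2 CPM, with a log2 fold change of 1.11 (SE 0.14, 95% interval 0.82 to 1.41, adjusted p 6.79e-07, edgeR). The siNC libraries were more apart than the siCBX3 ones, but both lay well below them. No other feature shares exon bases with AGO4. It had the fewest counts of the 10 genes in siNC, which limits the precision of its fold change.

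AGO3 fell and AGO1 was not called. AGO3 counts were 617 and 592 with siNC and 337 and 389 with siCBX3, or 16.4 and 14.1 CPM against 9.56 and 10.3 CPM. The groups did not overlap, at a log2 fold change of -0.62 (SE 0.12, adjusted p 0.000128, edgeR). AGO1 had 30.4 and 28.1 CPM in siNC and 27.2 and 24.5 CPM in siCBX3. Its log2 fold change of -0.18 (SE 0.09, adjusted p 0.119, edgeR) had a 95% interval of -0.37 to 0.01. With library totals AGO1 was called lower (-0.26, adjusted p 0.0272), and with upper-quartile scaling too (-0.22, adjusted p 0.0499). The intervals of AGO4 and of the other 3 Argonautes do not meet, as the plot of fold changes shows. The differences between paralogs were not tested in themselves.

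**Figure D2:**
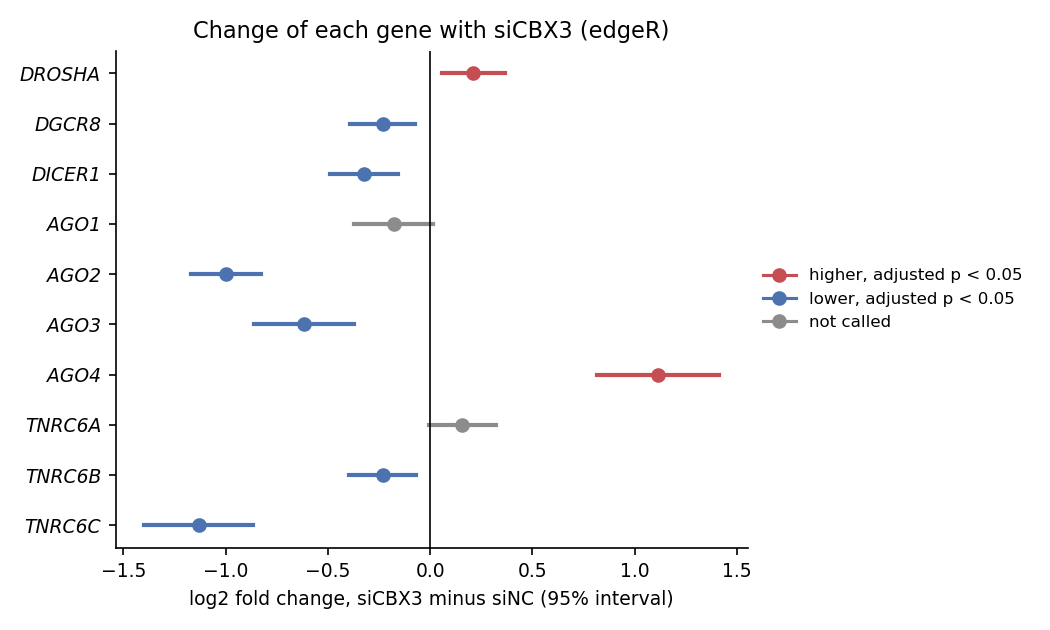
Log2 fold change (siCBX3 minus siNC, x axis) of each gene with its 95% interval from the edgeR fit to all 4 libraries, coloured by call. AGO4 stood at 1.11, AGO2 at -0.998 and TNRC6C at -1.13, and the intervals of AGO1 and TNRC6A include 0.

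Per length, the Argonaute messages had a different make-up in each group, described here by shares. As RPKM values the 4 genes summed to 7.56 and 7.91 in siNC and 5.94 and 5.76 in siCBX3, which is 75.7% of the siNC mean. AGO2 held 51.6% and 52.2% of that sum in siNC and 31.6% and 33.4% in siCBX3. AGO4 held 8.88% and 12.3% in siNC and 29.2% and 28.4% in siCBX3. AGO2 thus went from the leading Argonaute message to a level close to that of AGO1 and AGO4. AGO1 held 29.2% and 26.7% against 31.8% and 29.9%, and AGO3 10.3% and 8.77% against 7.35% and 8.24%. In siNC the order of mean RPKM was AGO2 (4.01), AGO1 (2.16), AGO4 (0.822) and AGO3 (0.738), where AGO4 and AGO3 overlapped between libraries. In siCBX3 it was AGO2 (1.90), AGO1 (1.81), AGO4 (1.69) and AGO3 (0.456), where AGO1 (1.89 and 1.73) overlapped both AGO2 (1.88 and 1.92) and AGO4 (1.73 and 1.64). The level of AGO2 was 5.81 and 4.25 times that of AGO4 in siNC and 1.08 and 1.17 times in siCBX3. With 2 libraries against 2, an exact two-sided permutation test of such a share cannot go below p = 0.333, and the shares were not tested; they are given as a description.

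**Figure D3:**
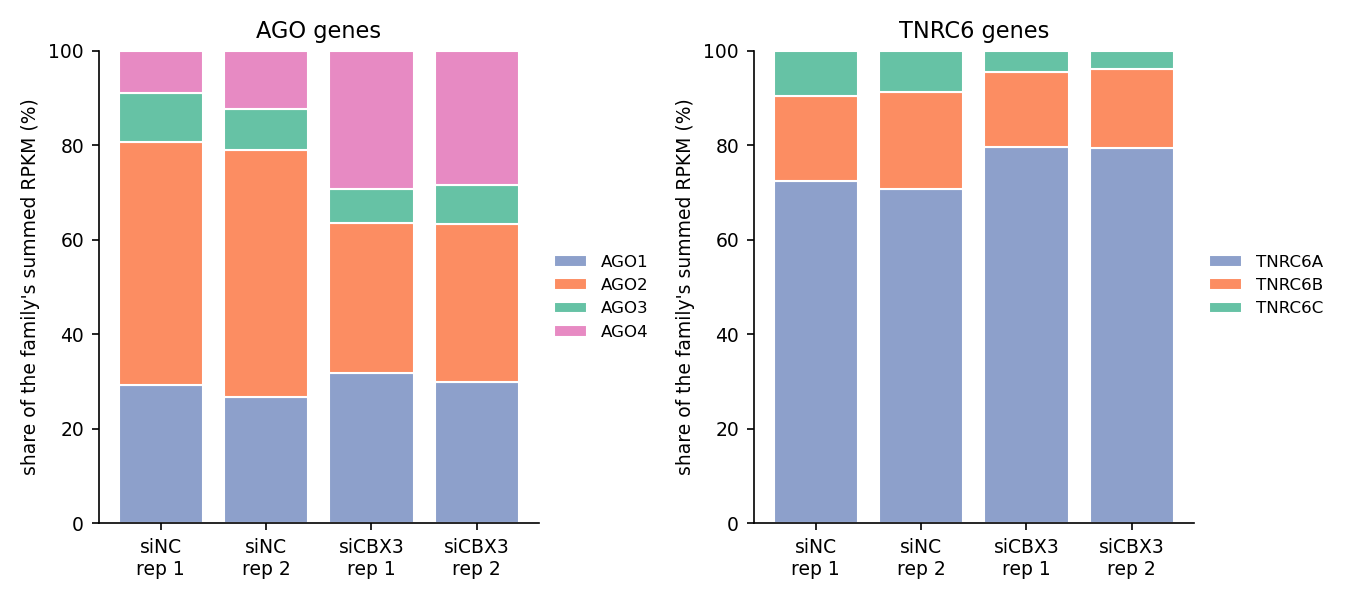
Share of each gene (y axis, percent) in its family's summed RPKM in each of the 4 libraries, for the AGO genes (left) and the TNRC6 genes (right). The AGO2 part shrank from 51.6% and 52.2% to 31.6% and 33.4%, the AGO4 part grew from 8.88% and 12.3% to 29.2% and 28.4%, and TNRC6A made up most of the TNRC6 sum in every library.

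Of the GW182 genes, TNRC6C and TNRC6B were called lower and TNRC6A was not called. TNRC6C (chromosome 17, 77959240 to 78108835, plus strand) was counted 713 and 632 times with siNC and 291 and 274 times with siCBX3, or 18.9 and 15.002 CPM against 8.26 and 7.23 CPM. Both siCBX3 libraries were well under the lower siNC library, with a log2 fold change of -1.13 (SE 0.13, 95% interval -1.40 to -0.86, adjusted p 9.35e-08, edgeR). Its antisense neighbour TNRC6C-AS1 covers 12.9% of the TNRC6C exon bases and had 6 to 18 counts per library. How reads in the shared bases were counted is not known.

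TNRC6B (chromosome 22, 40044817 to 40335808, plus strand) had 63.5 and 63.2 CPM in siNC and 52.3 and 55.7 CPM in siCBX3. The siCBX3 libraries were both lower, by -0.23 on the log2 scale (SE 0.08, adjusted p 0.0189, edgeR). The call was lost without siCBX3 replicate 1 (-0.19, adjusted p 0.207) and without siCBX3 replicate 2 (-0.27, adjusted p 0.0513). It was lost too on log2 of RPKM plus 1 (-0.23, adjusted p 0.0759, limma) and plus 0.1 (-0.30, adjusted p 0.0701, limma). TNRC6A (chromosome 16, 24610209 to 24827632, plus strand) had 165.5 and 141 CPM in siNC and 169.9 and 172 CPM in siCBX3. Its log2 fold change was 0.16 (SE 0.08, 95% interval -0.01 to 0.32, adjusted p 0.105, edgeR), so it was not called. Without siNC replicate 1, the higher siNC library, it was called (0.28, adjusted p 0.00121).

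TNRC6A was the main GW182 message per length in every library. It held 72.4% and 70.7% of the family's summed RPKM in siNC and 79.7% and 79.5% in siCBX3. TNRC6C held 9.63% and 8.77% in siNC and 4.50% and 3.89% in siCBX3, and TNRC6B 17.9% and 20.5% against 15.8% and 16.6%. The level of TNRC6A was 7.52 and 8.07 times that of TNRC6C in siNC and 17.7 and 20.4 times in siCBX3. The family's sum was 17.9 and 16.1 RPKM in siNC and 15.9 and 16.4 RPKM in siCBX3, which overlapped.

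Over the 13 other scalings, filters, tools and left-out libraries that were tried, no gene of the 10 changed direction. AGO2, AGO3, AGO4, TNRC6C and DICER1 kept their call in all 13. AGO3, AGO4 and TNRC6C have mean levels under 2 RPKM in both groups, and on log2(RPKM + 1), where the added 1 shrinks such changes, they stood at -0.26, 0.56 and -0.61. The plot of these settings shows the open points, where a call was missing, confined to DROSHA, DGCR8, AGO1, TNRC6A and TNRC6B.

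**Figure D4:**
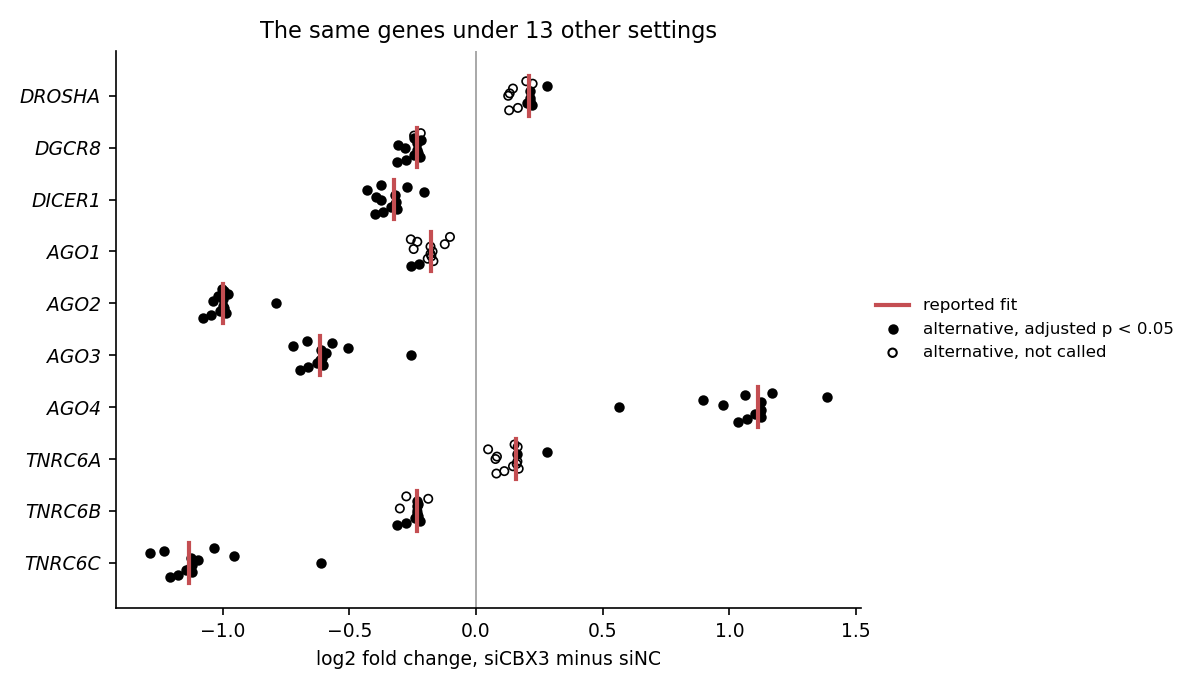
Log2 fold change (siCBX3 minus siNC, x axis) of each gene in the reported fit (red line) and under 13 other settings (points, filled where adjusted p is under 0.05). The points of AGO2 lie between -1.08 and -0.79, those of AGO4 between 0.56 and 1.39 and those of TNRC6C between -1.29 and -0.61.

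AGO4, AGO1 and AGO3 are neighbours on chromosome 1 and are read in the same direction. In the count table AGO4 spans 35808172 to 35857890, AGO1 35869808 to 35930528 and AGO3 35930718 to 36072500, all on the plus strand. The models of AGO4 and AGO1 are 11917 bases apart and those of AGO1 and AGO3 189 bases apart. Among the nearest genes on either side the directions were mixed. On the side of AGO4, CLSPN, a DNA replication checkpoint gene, fell (-0.95, adjusted p 4.39e-10, edgeR), and C1orf216 beyond it was not called (-0.04). On the side of AGO3, ADPRHL2 was not called (-0.13) and the collagen gene COL8A2 fell (-1.67, SE 0.50, adjusted p 0.0078, edgeR). The fall of COL8A2 rests on few counts, 44 and 40 with siNC and 20 and 4 with siCBX3. Beyond ADPRHL2 and COL8A2, TRAPPC3 (0.64) and MAP7D1 (0.69) rose. These neighbours were chosen after their values were seen. RP4-665N4.8, a feature antisense to AGO3 that shares 86 exon bases with it, fell too (-1.24, adjusted p 0.00041, edgeR), from 114 and 92 counts to 41 and 39.

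The promoters of these 3 adjacent Argonautes are shown because the genes lie side by side and AGO4 rose while AGO3 fell. RefSeq promoter windows on GRCh38.p14 matched 9 of the 10 genes (not AGO2), each with 250 bases before a RefSeq gene start. These starts are not always those of the count table. RefSeq's start of AGO1 is 35883209, well inside the AGO1 model that begins at 35869808, and that of AGO3 is 35931105, inside the model that begins at 35930718, while that of AGO4 is 35808016, before its model. The AGO1 and AGO3 stretches shown are therefore each upstream of a RefSeq start and not of the measured gene's first base. The stretches printed end at the base before the RefSeq start, at chr1:35807866-35808015 for AGO4, chr1:35883059-35883208 for AGO1 and chr1:35930955-35931077 for AGO3, plus strand. The one for AGO3 stops 27 bases early, where the count table begins an AGO3 exon. Capitals mark matches on either strand to any of 5 motifs. The GC box was searched as GGGCGG and the CCAAT box by the letters of its name. The core of sites for ETS factors was searched as CCGGAAG. For the E-box the letters were CACGTG, which read alike on both strands. The TATA box was searched as TATAAA.
AGO4: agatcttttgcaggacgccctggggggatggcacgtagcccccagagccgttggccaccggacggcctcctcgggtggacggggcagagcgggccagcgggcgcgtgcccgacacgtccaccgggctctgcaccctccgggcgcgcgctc
AGO1: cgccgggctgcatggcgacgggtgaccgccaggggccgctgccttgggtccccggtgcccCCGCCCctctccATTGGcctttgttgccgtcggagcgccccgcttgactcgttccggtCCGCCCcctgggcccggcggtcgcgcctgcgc
AGO3: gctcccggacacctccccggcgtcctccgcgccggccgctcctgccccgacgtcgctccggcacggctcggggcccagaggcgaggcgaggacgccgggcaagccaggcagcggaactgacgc
In the full 250 bases, AGO1 had 2 GC boxes and 1 CCAAT box. AGO3 had 2 GC boxes and 1 ETS core, all outside the printed stretch, and AGO4 had none of the 5 motifs. Over all 35116 RefSeq windows of that length, 42.6% held a GC box, 32.0% a CCAAT box, 8.52% an ETS core, 6.35% an E-box and 10.7% a TATA box. The windows of AGO4, AGO1 and AGO3 had 20, 25 and 41 CpG dinucleotides, against a median of 11 over all windows. These matches describe letters only.

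The wider pathway was followed in 9 lists of 148 genes, of which 147 are in the count table and 123 were tested. Of these, 26 were called higher and 36 lower, at a median log2 change of -0.07, beside 24.4% and 24.0% of all genes and an overall median of -0.01. Changes past 1 on the log2 scale were few, 3 higher and 5 lower. The plot of the lists shows the widest spread among host genes of microRNAs.

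**Figure D5:**
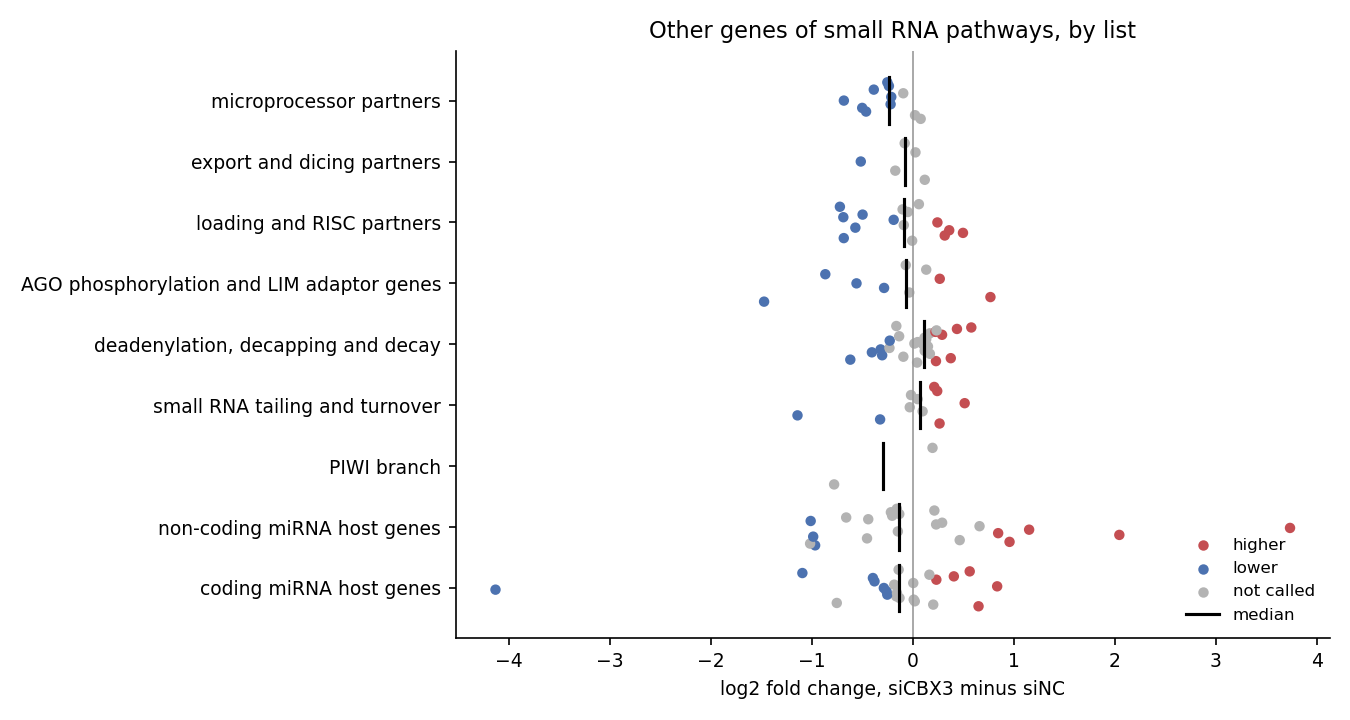
Log2 fold change (siCBX3 minus siNC, x axis) of each tested gene of 9 lists (points, coloured by edgeR call), with the list's median as a black line. Microprocessor partners lie below 0 in 9 of 11 cases, and the points farthest out are MEST at -4.14 and MIR3142HG at 3.74.

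Genes of proteins that work beside the Microprocessor were called lower in 8 of 11 cases and higher in none, with a median of -0.24. Of all genes tested, 24.0% were called lower and 24.4% higher. ILF2, a subunit of a double-stranded RNA binding complex, fell from 456 to 284 CPM (-0.68), and ERH, a small Microprocessor cofactor, from 72.02 to 52.2 CPM (-0.46). The helicases DDX5 (0.02) and DDX17 (0.08) were not called. The count of lower genes was 4 without siCBX3 replicate 1 and 5 without siCBX3 replicate 2. Of 5 genes for export and dicing only RAN, the GTPase that drives nuclear export, was called, and it fell from 329 to 230 CPM (-0.52). With library totals, or without siNC replicate 1, 2 of them were lower. XPO5 (-0.08), the hairpin export receptor, and the DICER1 partners TARBP2 (0.03) and PRKRA (-0.17) were not called.

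Partners of Argonaute loading and of the silencing complex moved both ways, with 4 of 15 higher and 6 lower and a median of -0.09. Over all genes tested, 24.4% were called higher and 24.0% lower. The 4 called higher in the list were HSPA8 (0.24), GEMIN4 (0.36), FXR1 (0.32) and FXR2 (0.50). FMR1, the fragile X RNA-binding protein gene, fell from 188 to 117 CPM (-0.68), TSN, a subunit of the nuclease that removes passenger strand fragments, from 82.1 to 49.7 CPM (-0.72), and the helicase gene MOV10 from 49.8 to 30.9 CPM (-0.69). Among genes that modify Argonautes or bridge them to other proteins, 2 of 9 were higher and 4 lower. AJUBA, a LIM adaptor, fell from 17.8 to 6.39 CPM (-1.47), and PPP6C, a subunit of the phosphatase that resets Argonaute phosphorylation, fell from 9.61 to 5.26 CPM (-0.87). The count of higher genes in this list was 1 without siCBX3 replicate 1, without siCBX3 replicate 2 and with library totals.

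Effectors downstream of the GW182 proteins were called both ways. Of 26 genes of deadenylation, decapping and decay, 6 were higher, 5 lower and 15 not called, beside 24.4% higher and 24.0% lower over all genes, and their median was 0.11. PATL1, a decapping scaffold, rose from 45.6 to 68.1 CPM (0.58), and the CCR4-NOT subunits CNOT11 (-0.62) and CNOT7 (-0.41), of which CNOT7 is a deadenylase, fell. The scaffold CNOT1 (0.04) and the helicase DDX6 (0.01) were not called. With library totals 4 of the 26 were higher and 8 lower.

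Genes that tail or degrade small RNAs were called higher in 4 of 10 cases and lower in 2, with a median of 0.07. The shares over all genes tested were 24.4% higher and 24.0% lower. LIN28B, which blocks let-7 maturation, fell from 24.0 to 10.8 CPM, from 985 and 917 counts to 349 and 445 (-1.14, SE 0.12, adjusted p 1.34e-08, edgeR). SND1, a nuclease of the silencing complex, rose from 131 to 187 CPM (0.51), and the exonuclease gene ERI1 fell from 38.9 to 31.0 CPM (-0.32), a call lost without siCBX3 replicate 1 (-0.27, adjusted p 0.0727, edgeR). The count of higher genes was 1 without siNC replicate 2, without either siCBX3 library and with library totals, and that of lower genes 1 without siCBX3 replicate 1. LIN28A had 2 counts in each siNC library and 0 in the siCBX3 libraries and was not tested. In the PIWI branch, the germline relatives of the Argonautes, 2 of the 5 genes in the table were tested and neither was called (PIWIL1 -0.78, PIWIL4 0.19).

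Host genes, whose transcripts contain microRNA hairpins, moved both ways. The counts below stand beside 24.4% called higher and 24.0% called lower over all genes tested. Of 41 non-coding hosts 22 were tested, with 5 higher, 3 lower and a median of -0.14; without siCBX3 replicate 1 the lower ones were 6, and without siCBX3 replicate 2 they were 5. MIR3142HG rose from 66 and 48 counts to 706 and 692 (3.74, SE 0.17, adjusted p 3.01e-15, edgeR). MIR22HG rose from 27.5 to 61.1 CPM (1.15), and MIR4697HG fell from 38.1 to 18.9 CPM (-1.01). Of 23 coding hosts tested 5 were higher and 7 lower. TLN2, a talin gene, fell from 48.9 to 22.9 CPM (-1.09), the imprinted gene MEST fell from 144 and 128 counts to 10 and 4 (-4.14), and the autophagy gene VMP1 rose from 126 to 186 CPM (0.56). The value of MEST rests on few counts and was -4.98 without siCBX3 replicate 1 and -3.58 without siCBX3 replicate 2. On log2(RPKM + 1) it was -0.76, and that of MIR3142HG was 2.47.

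Each of these 6 hosts contained a RefSeq microRNA in its span and on its strand. One mature arm of each is shown, since these are the small RNAs that would enter the Argonautes described above. Capitals mark the seed (bases 2 to 8), and RefSeq gives the positions on GRCh38.p14. The sequences lie in exons of MIR3142HG (chr5:160485372-160485393), MIR22HG (chr17:1713914-1713935, minus strand), MIR4697HG (chr11:133898506-133898529, minus strand) and VMP1 (chr17:59841273-59841294), and in introns of TLN2 (chr15:62823971-62823992) and MEST (chr7:130496126-130496148).
miR-146a-5p (MIR3142HG): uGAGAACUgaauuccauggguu
miR-22-3p (MIR22HG): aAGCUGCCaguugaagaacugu
miR-4697-3p (MIR4697HG): uGUCAGUGacuccugccccuuggu
miR-190a-5p (TLN2): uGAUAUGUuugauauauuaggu
miR-335-5p (MEST): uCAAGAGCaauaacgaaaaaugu
miR-21-5p (VMP1): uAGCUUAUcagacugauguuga
The 8 mature sequences printed have 8 different seeds, so none of these microRNAs share a seed family. A host's message level is not a measure of its microRNA, which is cut from the primary transcript and was not counted here.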

How the data were processed

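Messenger RNA of 143B cells was sequenced in 2 siNC and 2 siCBX3 libraries. The authors deposited raw read counts per gene and RPKM values, 1 column per library per the file headers. Trimmomatic 0.36, STAR 2.5.3a, featureCounts of Subread 1.5.1 and GRCh38 are named, per the submitters' processing notes. The library kit keeps strand per the labels, but the counting's strand and shared-read settings are not given in the sources used here, so antisense and overlapping genes are uncertain. The deposited RPKM values match the counts divided by exonic length and total. They were used only to compare levels between genes.

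Counts were fitted in R 4.3.3 with edgeR 4.0.16 (filterByExpr with minimum count 10 and total 15, TMM factors, quasi-likelihood test with group as the only term, 2 residual degrees of freedom). P-values were adjusted by Benjamini-Hochberg over all 20999 genes tested, and calls are at 0.05. Log2 fold changes are siCBX3 over siNC; SE is their size over the root of F, and intervals are at 95%. Each gene's variance was moderated towards that of other genes, with a median of 22.0 prior degrees of freedom beside the 2 residual ones. Precision covers these libraries and counting error only, since reads are not independent molecules. The procedure was tested on simulated counts in which only a small share of genes was changed. That test did not cover a change as broad as the 48.4% of genes called here.

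The 10 genes and the lists were chosen with earlier results of these data known. Named were the 10 genes, CBX3, genes sharing exons with them, and up to 3 called genes per list with the smallest adjusted p; some of the latter are not reported here, and others named were chosen after their values were seen. Alternatives used DESeq2 1.42.0, limma 3.58.1 (voom, and RPKM plus 1 or 0.1), other scalings and filters, and left-out libraries. Motif searches (pandas 2.3.3) and figures (matplotlib 3.10.9) were made in Python 3.11.15.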

Additional observations from a re-analysis of the deposited data

How the results depend on the processing

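AGO2, AGO3, AGO4, TNRC6C and DICER1 kept their direction and call under all 13 alternatives; the other 5 genes kept their direction. Of the 10 genes, 1 was called higher, not 2, with library totals, with upper-quartile scaling and on log2 RPKM plus 1 or plus 0.1, since DROSHA was no longer called. Leaving out 1 library gave 1 to 2 genes higher and 4 to 6 lower. Of the list genes, 14 were higher on RPKM plus 1 and 15 on RPKM plus 0.1, against 26, which lowered the higher count in the loading, phosphorylation, decay, turnover and coding-host lists to 2, 1, 2, 1 and 3; leaving out 1 library gave 18 to 27 higher and 31 to 37 lower. Over all genes, library totals gave 4243 higher and 5917 lower, against 5132 and 5041, and moved the median log2 fold change by -0.0793. As shares of raw counts, not per length, AGO1 gained 6.48 percentage points (2.92 per length), AGO2 changed by -16.1 (-19.4), AGO4 by 10.7 (18.2) and TNRC6C by -3.91 (-5.00); longer genes draw more counts. The correlation of deviations between libraries of the same replicate number was 0.0287. With 2 libraries per group this value cannot show whether replicate numbers pair the libraries. With the replicate block 3 of the 10 genes were higher and 6 lower, TNRC6A being added (0.16, adjusted p 0.046, edgeR). AGO4, with 182 and 285 counts in siNC, is the least precisely measured Argonaute (SE 0.14). Where no reason is given, the cause was not tested.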
